A study of Mus musculus with 24 samples.

Results

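The 10 immediate early and stress response genes *Fos*, *Fosb*, *Jun*, *Junb*, *Egr1*, *Ier2*, *Ier3*, *Atf3*, *Dusp1* and *Zfp36* were taken by their symbols from all 4 count tables of a mouse liver RNA-seq study, in which they are 10 of 48820 gene entries. The study asked what bone morphogenetic proteins 9 and 10 made by hepatic stellate cells (HSCs) do for liver macrophages and endothelial cells (ECs). The 24 libraries formed 8 groups of 3 and all came from C57BL/6 mice. Sorted liver macrophages, sorted ECs and whole liver tissue were each sequenced from Bmp9/10-HSC-KO mice, which carry floxed *Gdf2* (the gene for BMP9) and floxed *Bmp10* with Lrat Cre, and from control littermates with the same floxed alleles and no Cre. Liver macrophages were also sequenced from Smad4FF cKO mice (floxed *Smad4* with Vav1 Cre) and from Smad4FF mice (floxed *Smad4* alone), SMAD4 being the shared partner of the SMAD proteins that carry BMP and TGF-β signals. Lrat Cre acts in HSCs, whereas Vav1 Cre acts in all blood-derived cells, so that *Smad4* was not removed from macrophages alone. Sorted cells came from mice aged 8 to 10 weeks and liver tissue from mice aged 12 weeks. The cells passed through perfusion, 5 min of collagenase and DNase digestion, a density gradient, antibody staining and sorting (CD45+Ly6C-F4/80+CD64+ for macrophages, CD45-CD31+ for ECs), and liver tissue did not. By their label names, 3 mice gave both a macrophage and an EC library.

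Immediate early genes are switched on within minutes of a growth signal, a cytokine or a physical insult, without new protein synthesis, because the factors that drive them (SRF with its ELK partners, CREB and NF-κB) are already present and are turned on by kinases. FOS and FOSB pair with JUN and JUNB to form the transcription factor AP-1, ATF3 joins the same leucine zipper network, and EGR1 is a zinc finger factor induced beside them. DUSP1 and ZFP36 close the response: DUSP1 is a phosphatase that switches off p38 and JNK, and ZFP36 (tristetraprolin) binds AU-rich messengers such as that of TNF and speeds their decay. IER2 and IER3 are small early response proteins, and IER3 is known as an NF-κB target that acts on cell survival and ERK signalling. The same genes are known to be induced while tissue is digested and cells are sorted, so sorted cells were read here beside whole liver.

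Libraries held between 60911527 and 110879155 counts, at which 3 counts correspond to between 0.0258 and 0.0524 CPM (counts scaled to a common library size), and all 10 genes passed the filter on low counts in each comparison. *Gdf2* lay between 9.38 and 22.5 CPM in control liver and between 2.12 and 3.84 CPM in Bmp9/10-HSC-KO liver, *Bmp10* between 1.99 and 3.28 CPM and between 0.0938 and 0.262 CPM, and *Smad4* between 35.2 and 42.8 CPM in Smad4FF and between 12.6 and 17.2 CPM in Smad4FF cKO macrophages. The 10 macrophage markers summed to between 25689 and 46737 CPM in the macrophage libraries and to at most 72.3 CPM in ECs, with *Fcgr1* at or under 3 counts in Bmp9/10-HSC-KO ECs. The 12 endothelial markers summed to between 13457 and 19314 CPM in ECs, and the 9 hepatocyte markers other than *Trf*, the transferrin gene, to between 113640 and 196530 CPM in liver, to between 176 and 976 CPM in macrophages and to at most 114 CPM in ECs. *Trf* alone had group means between 1187 and 4874 CPM in macrophages, more than the other 9 together. The 3 mice of a group are separate animals by their labels.

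Each gene was present in all 24 libraries, and its level depended on the sample type (the plot of the levels in each library). Per kilobase of exon, the scale on which genes can be set beside each other, *Dusp1* (87.9 ± 41.6 CPM per kb, SD, n = 3), *Junb* (83.8 ± 33.1) and *Ier2* (56.3 ± 31.3) led in control macrophages, and *Egr1* (2.89 ± 3.20) and *Fosb* (0.217 ± 0.133) came last. The leading levels were within their SDs of each other, whereas *Fosb* was the lowest of the 10 in each of the 8 groups. In control ECs *Dusp1* alone led, at 99.6 ± 15.6 CPM per kb, ahead of *Ier2* at 33.6 ± 19.4. In control liver the order was another one: *Zfp36* led at 19.7 ± 4.65 CPM per kb, followed by *Ier2* at 14.5 ± 3.03 and *Egr1* at 11.3 ± 9.62, and *Fos* (1.06 ± 0.543) and *Ier3* (0.871 ± 0.263) were near the end. The libraries of *Zfp36* and *Ier2*, neighbours in this order, overlapped.

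**Figure D1:**
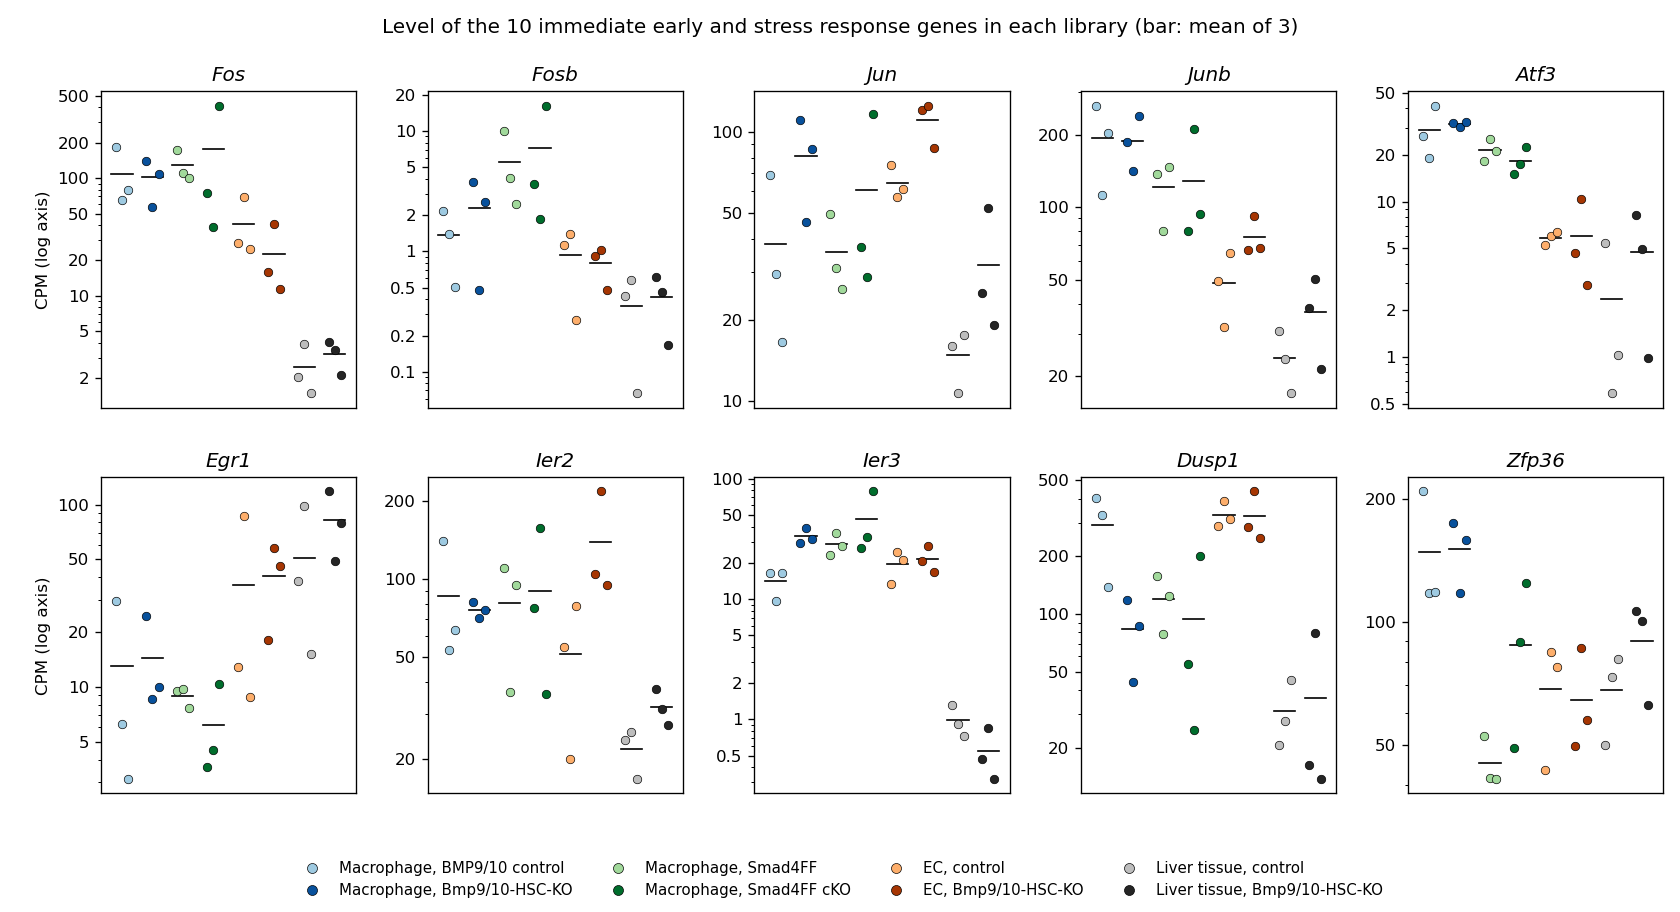
CPM (log axis) of each of the 10 genes in the 24 libraries, in 8 groups of 3 (points: libraries; bars: group means). *Ier3* lay between 0.320 and 1.31 CPM in the 6 liver libraries and at 9.62 CPM or above in the 18 sorted libraries, while *Egr1* reached 118 CPM in liver and at most 86.6 CPM in sorted cells.

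Of the 10 genes, *Ier3* rose and *Dusp1* fell in liver macrophages of Bmp9/10-HSC-KO mice, and the other 8 were not called (the plot of the knockout effects). A gene was called where edgeR's quasi-likelihood test gave an adjusted p under 0.05 and its level changed by more than 1 on the log2 scale in either direction. Across all genes tested, 11.7% were called in this comparison, 6.32% higher and 5.34% lower, so 2 of 10 is not far from the background. The median log2 fold change was 0.07 over the 10 genes and 0.04 over all genes.

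*Ier3* (chr17:35821684-35822923, plus strand) was at 16.3, 9.62 and 16.3 CPM in the control macrophage libraries and at 29.3, 39.2 and 31.5 CPM in Bmp9/10-HSC-KO macrophages. The groups did not overlap, as for 40.3% of all genes. The difference was 2.37-fold, a log2 fold change of 1.24 ± 0.23 (SE) with an edgeR adjusted p of 0.0096, and *Ier3* stayed called in each of the 6 fits that left out 1 library, at log2 fold changes from 1.03 to 1.36. *Dusp1* (chr17:26505590-26562128, minus strand) was at 405, 330 and 138 CPM in the controls and at 118, 44.2 and 86.3 CPM in the knockouts. All knockout libraries lay below all controls, but control replicate 3 was closer to knockout replicate 1 than to the other controls. *Dusp1* was 3.51-fold lower (log2 fold change -1.81 ± 0.46, edgeR adjusted p = 0.031). Its call was lost in 4 of the 6 fits with 1 library left out, without control replicate 1 (adjusted p = 0.076), control replicate 2 (0.086), knockout replicate 2 (0.078) or knockout replicate 3 (0.083), and its adjusted p ranged from 0.005 to 0.086 over 12 alternatives, with log2 fold changes from -2.16 to -1.499.

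The 2 called genes both lie on chromosome 17, and their start regions are shown here because they carry the only calls among the 10 genes in the knockout comparisons. RefSeq start regions on GRCm38.p6 were found for 8 of the 10 genes. Positions are counted back from the RefSeq start, the base just before it being -1. With annotated exon bases left out, the stretch from -250 to -30 (221 bases) is given for *Ier3* and that from -250 to -48 (203 bases) for *Dusp1*, 5′ to 3′ on the gene's strand, as chr17:35821463-35821683 (plus) for *Ier3* and chr17:26508520-26508722 (minus) for *Dusp1*. Capitals mark the CREB site letters TGACG, the full palindrome TGACGTCA, the AP-1 letters TGACTCA and the TATA box letters TATAAA, each searched on both strands of the 250 bases before a start.
Ier3: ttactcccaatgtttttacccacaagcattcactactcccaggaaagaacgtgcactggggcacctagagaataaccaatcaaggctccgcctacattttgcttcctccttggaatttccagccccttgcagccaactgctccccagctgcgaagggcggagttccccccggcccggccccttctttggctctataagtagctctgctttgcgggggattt
Dusp1: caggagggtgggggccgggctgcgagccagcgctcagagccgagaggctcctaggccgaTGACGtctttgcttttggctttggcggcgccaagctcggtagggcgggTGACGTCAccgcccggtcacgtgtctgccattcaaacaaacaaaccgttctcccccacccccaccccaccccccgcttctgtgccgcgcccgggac
The full palindrome, which contains TGACG on both strands, was found in *Dusp1* from position -143 to -136, and in 1.55% of 32851 RefSeq start regions of the same length. TGACG was found in *Dusp1*, *Fos*, *Fosb*, *Junb* and *Atf3*, 5 of the 8 genes, against 17.8% of all start regions, and TGACTCA in none of the 8 against 4.46%. *Ier3* held none of these letters in this window.

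Sums of marker genes of other cells were set beside these values. The 12 endothelial markers, none at or under 3 counts in every library, summed to between 348 and 575 CPM in control and to between 57.8 and 131 CPM in Bmp9/10-HSC-KO macrophages. *Cdh5*, which liver macrophages can express as well, was the greater part of the control sum by its mean, 245 CPM against 1.45 CPM in the knockouts, while *Eng* had a higher mean in the knockouts (58.2 against 38.8 CPM). Without these 2 genes, the other 10 endothelial markers summed to between 50.8 and 258 CPM in control and to between 11.6 and 61.4 CPM in Bmp9/10-HSC-KO macrophages. The 10 lymphocyte markers summed to between 69.3 and 110 CPM and between 235 and 318 CPM. *Trf* had means of 3410 and 4874 CPM, and the other 9 hepatocyte markers overlapped, at between 266 and 976 CPM and between 368 and 565 CPM. ECs expressed *Dusp1* at a mean of 329.9 CPM. The sums of the 10 endothelial markers in the control macrophage libraries were between 0.338% and 1.71% of the mean sum in control ECs, which at the EC level of *Dusp1* gives between 1.11 and 5.66 CPM (at most 9.98 CPM with all 12 markers), against 138 to 405 CPM measured. For *Ier3* the same product was at most 0.335 CPM, and 0.592 CPM with all 12. The product takes any carried cells to hold these genes at the EC mean, and it rests on levels scaled separately. The part of endothelial, lymphocyte and hepatocyte transcripts in either change was not tested.

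Among the AP-1 subunits, *Jun* was at 68.7, 29.5 and 16.5 CPM in the control macrophage libraries and at 110.4, 46.1 and 86.3 CPM in the knockouts. The groups overlapped and *Jun* was not called (log2 fold change 1.08 ± 0.52, edgeR adjusted p = 0.19), except when control replicate 1 was left out (1.81, adjusted p = 0.031; range over 12 alternatives 0.031 to 0.44). *Fos* was at 183, 65.7 and 79.1 CPM and at 140.4, 56.9 and 108 CPM, and *Junb* at 264, 112 and 203 CPM and at 187, 141 and 238 CPM. Neither moved beyond its spread, with log2 fold changes of -0.10 ± 0.44 and -0.03 ± 0.31. *Fosb* stayed between 0.482 and 3.77 CPM in these 6 libraries. *Atf3* was between 19.2 and 41.6 CPM in the controls and between 30.4 and 32.4 CPM in the knockouts (log2 fold change 0.12 ± 0.26), and *Zfp36* was at 208, 118 and 118 CPM and at 175, 118 and 159 CPM (0.02 ± 0.26). *Egr1* and *Ier2* differed by 0.14 ± 0.78 and -0.17 ± 0.34 on the log2 scale, again without a call.

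**Figure D2:**
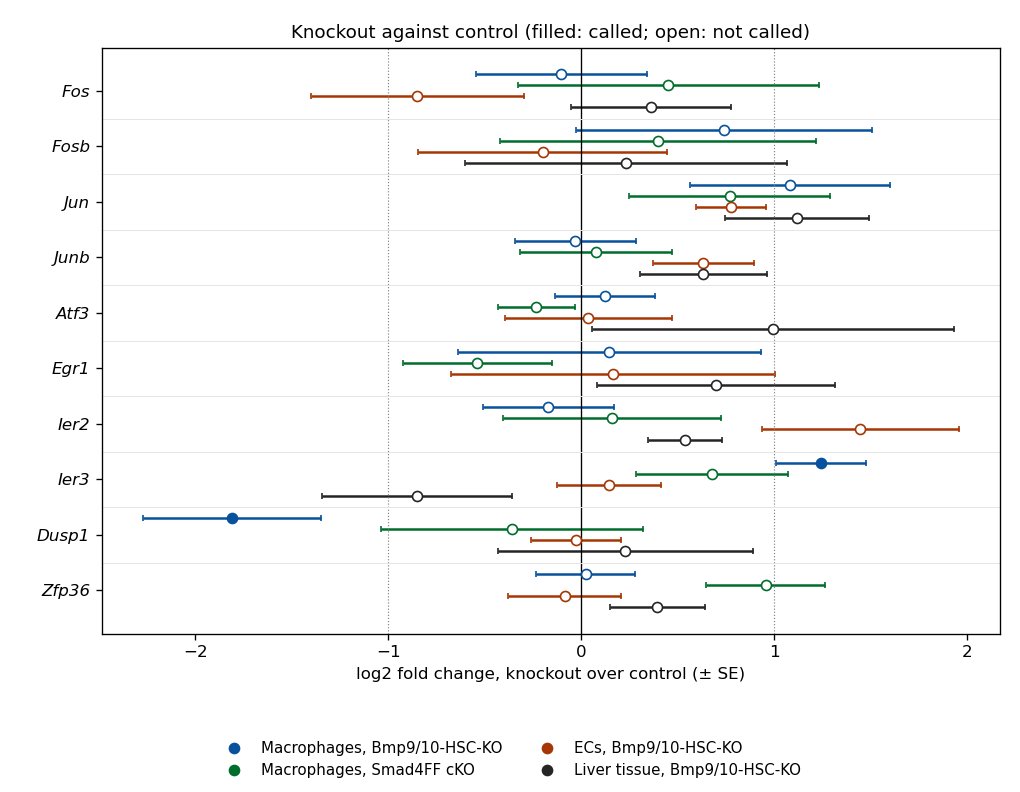
Log2 fold change of knockout over control (± SE, n = 3 in each group) for the 10 genes in 4 comparisons; filled points were called and dotted lines mark a log2 fold change of 1 in each direction. *Ier3* (1.24) and *Dusp1* (-1.81) in Bmp9/10-HSC-KO macrophages are the filled points, and *Jun* lies to the right of 0 in all 4 comparisons without a call, though at -0.11 in Smad4FF cKO macrophages without replicate 3.

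Loss of *Smad4* tested the pathway inside the blood-derived cells. None of the 10 genes was called in Smad4FF cKO against Smad4FF macrophages, where 5.43% of all genes were. DESeq2 also called 0, and 1 of the 10 had an unadjusted p below 0.05 in edgeR, against 21.4% of all genes. That gene was *Zfp36*, at 52.8, 41.7 and 41.4 CPM in Smad4FF and at 49.3, 89.3 and 124.6 CPM in Smad4FF cKO. One knockout library lay among the controls (log2 fold change 0.95 ± 0.31, edgeR adjusted p = 0.12), and without it, Smad4FF cKO replicate 1, *Zfp36* was called at 1.24 with an adjusted p of 0.028 (range over 12 alternatives 0.028 to 0.33).

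The genes called in Bmp9/10-HSC-KO macrophages were not called here. *Ier3* was at 23.2, 35.5 and 27.4 CPM in Smad4FF and at 26.7, 32.8 and 78.1 CPM in Smad4FF cKO macrophages (log2 fold change 0.68 ± 0.40), and *Dusp1* at 158, 78.7 and 123 CPM and at 54.9, 24.9 and 200.7 CPM (-0.36 ± 0.68). Smad4FF cKO replicate 3 was the highest of its group for 8 of the 10 genes, *Fos* among them at 413 CPM against 75.1 and 38.3 CPM in the other two. Without that library the log2 fold changes of *Dusp1*, *Fos* and *Ier3* were -1.59, -1.18 and 0.05, none of them called, and *Egr1* was called at -1.14 (edgeR adjusted p = 0.036; range over 12 alternatives 0.036 to 0.78). The difference between the effects of the 2 deletions in macrophages was itself called for none of the 10 genes by edgeR or DESeq2 (2.61% of all genes in edgeR), with 0 of 10 at an unadjusted p below 0.05 (16.3% of all genes). For *Dusp1* this difference was -1.41 ± 0.92 on the log2 scale and for *Ier3* 0.61 ± 0.51. The endothelial markers summed to between 772 and 2408 CPM in these 6 libraries. The macrophage markers summed to between 39435 and 46737 CPM in Smad4FF and between 25689 and 32823 CPM in Smad4FF cKO. The stellate cell markers summed to between 185 and 219 CPM and between 125 and 173 CPM. Neither sum overlapped. *Ecm1* was the greater part of the stellate sum in Smad4FF (mean 126 CPM, against 51.9 CPM in Smad4FF cKO), while *Lrat*, *Dcn* and *Reln* had higher means in Smad4FF cKO. The 9 hepatocyte markers other than *Trf* overlapped, at between 325 and 594 CPM in Smad4FF and between 176 and 584 CPM in Smad4FF cKO, whereas *Trf* had a mean of 1187 CPM in Smad4FF and of 3771 CPM in Smad4FF cKO. Their part in the values was not tested.

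In ECs of Bmp9/10-HSC-KO mice none of the 10 genes was called by edgeR, against 13.7% of all genes, and by the adjusted p alone 1 was (20.1% of all genes). DESeq2 called 1. By unadjusted p below 0.05 there were 3 of 10 (32.6% of all genes), *Jun*, *Junb* and *Ier2*, and the same 3 genes had groups that did not overlap (40.4% of all genes). *Jun* was at 75.1, 57.3 and 60.97 CPM in control ECs and at 119.9, 124.8 and 86.6 CPM in the knockouts. Its adjusted p of 0.021 in edgeR passed, but its log2 fold change of 0.78 ± 0.18 (1.71-fold) stayed under the threshold of 1. *Ier2* was at 54.8, 20.1 and 78.7 CPM and at 105, 219 and 94.95 CPM. The knockouts lay above the controls, with a log2 fold change of 1.45 ± 0.51 and an adjusted p of 0.09 in edgeR. DESeq2 called *Ier2* (adjusted p = 0.0054), as did edgeR with library size as the only scaling (0.043), a scaling under which *Jun* also passed at a log2 fold change of 1.05. Over its 12 alternatives the adjusted p of *Ier2* ranged from 0.0054 to 0.27. *Junb* was at 49.7, 31.9 and 64.7 CPM and at 66.5, 92.4 and 67.9 CPM (0.63 ± 0.26, edgeR adjusted p = 0.14).

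Bmp9/10-HSC-KO EC replicate 2 was the highest of its group for all 10 genes. Without it *Ier2* had a log2 fold change of 0.96 and *Jun* of 0.68, with edgeR adjusted p of 0.27 and 0.072. *Fos* took the other direction, at 27.9, 69.8 and 25.3 CPM in control ECs and at 16.1, 40.6 and 11.5 CPM in the knockouts. These groups overlapped and the log2 fold change was -0.85 ± 0.55. *Dusp1* was at 288, 388 and 314 CPM and at 285, 436 and 250.2 CPM, a log2 fold change of -0.03 ± 0.23, and *Ier3* was between 13.3 and 27.4 CPM in all 6 libraries (0.14 ± 0.27). *Egr1* ranged from 8.77 to 86.6 CPM within the controls, wider than any difference between the groups. *Fosb*, *Atf3* and *Zfp36* differed by between -0.20 and 0.04 on the log2 scale. The 10 macrophage markers summed to between 54.4 and 72.3 CPM in control ECs and to between 6.84 and 9.68 CPM in Bmp9/10-HSC-KO ECs, with only *Fcgr1* at or under 3 counts. The stellate cell markers summed to between 185 and 251 CPM in control and to between 121 and 157 CPM in Bmp9/10-HSC-KO ECs. The endothelial markers summed to between 18637 and 19314 CPM and between 13457 and 14918 CPM, and the neutrophil markers to at most 0.0543 CPM and between 4.55 and 4.77 CPM. These sums did not overlap between the groups. The endothelial list went both ways. *Pecam1* (494 to 879 CPM), *Cdh5*, *Tie1*, *Egfl7*, *Robo4* and *Esam* had higher means in the knockouts, and the others, such as *Ptprb* (5044 to 2580 CPM), lower ones. Of the neutrophil markers 8 of 10 were at or under 3 counts in both groups, and the sum rose through *Ltf* (0.0181 to 3.40 CPM) and *Csf3r* (0.0163 to 1.23 CPM). The part of any of these in the EC values, those of the other gene lists included, was not tested.

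Whole liver, which was never digested, gave 9 of the 10 genes a log2 fold change above 0 (48.6% of all genes), with a median of 0.47 against -0.0098 over all genes, and none was called by edgeR (2.48% of all genes). At an unadjusted p below 0.05 there were 2 of 10 (12.9% of all genes), *Jun* and *Ier2*, whose groups also did not overlap (19.7% of all genes). *Jun* was at 16.02, 10.7 and 17.6 CPM in control liver and at 25.02, 51.8 and 19.2 CPM in Bmp9/10-HSC-KO liver. Knockout replicate 2 stood far above the rest, and the log2 fold change was 1.12 ± 0.37 (2.17-fold, edgeR adjusted p = 0.23). DESeq2 called *Jun* (adjusted p = 0.023; range over 12 alternatives 0.023 to 0.53), and without knockout replicate 2 its log2 fold change was 0.58, and that of *Dusp1* turned to -1.06 from 0.23. *Ier2* was at 23.8, 25.5 and 16.8 CPM and at 37.4, 31.3 and 27.3 CPM (0.54 ± 0.19, edgeR adjusted p = 0.27). *Ier3* alone pointed down, from 1.31, 0.912 and 0.731 CPM to 0.469, 0.845 and 0.320 CPM, and its groups overlapped (-0.85 ± 0.49). Knockout replicate 3 was the lowest of its group for 9 of the 10 genes. With the replicate numbers as a block, again none of the 10 was called, and 271 of all genes were in place of 425. A pairing of same-numbered liver libraries was inferred from their deviations and is not given by the label names. In bulk tissue, fewer cells of a type and less RNA per cell cannot be told apart.

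The knockout effect was then compared between sorted cells and liver, which sets cells that passed through isolation beside tissue that did not. For *Ier3* the effects differed: the log2 fold change was 1.24 in macrophages and -0.85 in liver, a difference of 2.07 ± 0.48 (edgeR adjusted p = 0.022). It was the only one of the 10 genes called, where 7.56% of all genes were, 4.24% with a higher effect in macrophages. The call was lost without macrophage knockout replicate 2 (adjusted p = 0.051), liver control replicate 1 (0.052) or liver knockout replicate 1 (0.06), and the adjusted p ranged from 0.00085 to 0.06 over 18 alternatives. *Ier3* in liver was between 0.320 and 1.31 CPM. The macrophage markers summed to between 342 and 539 CPM in control liver and to between 137 and 273 CPM in Bmp9/10-HSC-KO liver, the hepatocyte markers to between 129110 and 156330 CPM and between 165830 and 218220 CPM, and the stellate cell markers to between 404 and 510.2 CPM and between 653 and 731 CPM, without overlap. The lymphocyte markers, at between 7.86 and 10.9 CPM and between 1.55 and 4.06 CPM, and the neutrophil markers, at between 7.62 and 11.8 CPM and between 2.52 and 4.47 CPM, did not overlap either. *Alb* was the greater part of the hepatocyte sum, at means of 87530 and 124810 CPM, while *Apoc3*, *Ttr* and *Hp* had lower means in the knockouts. So did *Lrat* and *Rgs5* of the stellate cell markers. The part of all these markers in the liver effect on *Ier3*, and so in the difference, was not tested. For *Dusp1* the difference was -2.06 ± 0.93, with an edgeR adjusted p of 0.20. It was -0.79 without liver knockout replicate 2 and reached -2.45 without liver knockout replicate 3, never with a call.

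Between ECs and liver no difference of effects was called for the 10 genes by edgeR or DESeq2 (6.53% of all genes in edgeR), with 0 of 10 at an unadjusted p below 0.05 (21.3% of all genes). Between macrophages and ECs none was called by edgeR (12.3% of all genes), although 3 of 10 had an unadjusted p below 0.05 (29.7% of all genes). These were *Dusp1* (-1.77 ± 0.59, adjusted p = 0.065), *Ier2* (-1.61 ± 0.70, 0.15) and *Ier3* (1.11 ± 0.39, 0.08). DESeq2 called *Dusp1* here (adjusted p = 0.014; range over 19 alternatives 0.014 to 0.15). For *Jun* the differences of the Bmp9/10-HSC-KO effect were -0.05 ± 0.71 between macrophages and liver, -0.30 ± 0.46 between ECs and liver and 0.31 ± 0.63 between macrophages and ECs.

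The levels in control mice show how far sorted cells stand from tissue before any deletion. Control macrophages were higher than control liver for 6 of the 10 genes and lower for none, where 26.9% of all genes were called higher, 33.5% lower and 60.4% in either direction, and the groups did not overlap for 7 of 10 (79.3% of all genes). The median log2 difference was 2.20 over the 10 genes and -0.23 over all genes. *Fos* was at 183, 65.7 and 79.1 CPM in control macrophages and at 2.05, 3.93 and 1.496 CPM in control liver, which is 35.8-fold higher (log2 difference 5.16 ± 0.55, edgeR adjusted p = 0.00013). *Ier3* followed at 3.55 ± 0.34, *Atf3* at 3.33 ± 0.83, *Dusp1* at 2.94 ± 0.46, *Junb* at 2.73 ± 0.35 and *Ier2* at 1.67 ± 0.37, and each of the 6 calls held in all 12 alternatives.

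*Fos* and *Junb* were the genes of the Fos and Jun families that edgeR called higher in sorted macrophages than in liver, and their start regions are given for that reason, as chr12:85473640-85473889 (plus) for *Fos* and chr8:84978749-84978998 (minus) for *Junb*, with the same letters in capitals.
Fos: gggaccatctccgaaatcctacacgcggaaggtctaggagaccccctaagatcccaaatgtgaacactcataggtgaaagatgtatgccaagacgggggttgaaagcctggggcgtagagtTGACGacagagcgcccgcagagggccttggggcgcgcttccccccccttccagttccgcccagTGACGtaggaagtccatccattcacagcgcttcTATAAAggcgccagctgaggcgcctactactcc
Junb: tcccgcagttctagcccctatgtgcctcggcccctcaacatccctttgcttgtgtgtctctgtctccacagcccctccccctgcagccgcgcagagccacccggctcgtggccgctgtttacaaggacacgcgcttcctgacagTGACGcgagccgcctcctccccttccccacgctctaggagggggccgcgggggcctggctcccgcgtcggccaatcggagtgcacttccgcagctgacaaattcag
*Fos* holds TGACG at positions -129 to -125 and -66 to -62 and TATAAA at -33 to -28, letters found in 12.4% of all start regions for TATAAA. *Junb* holds TGACG at -106 to -102.

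*Egr1* went the other way: it was at 29.4, 6.30 and 3.13 CPM in control macrophages and at 38.2, 98.7 and 15.2 CPM in control liver. The groups overlapped and the log2 difference of -2.27 ± 0.94 was not called in edgeR (adjusted p = 0.063), while DESeq2 gave an adjusted p of 0.048 (range over 12 alternatives 0.0076 to 0.24). *Egr1* was called in 5 of the 12 alternatives, 2 of them with 1 library left out, at log2 differences from -3.68 to -1.35 over all 12. *Zfp36* was at 208, 118 and 118 CPM and at 50.2, 73.6 and 81.1 CPM, a log2 difference of 0.83 ± 0.27 that stayed under the threshold of 1. *Jun* differed by 1.08 ± 0.48 and was not called in edgeR (adjusted p = 0.078), but was called by DESeq2 (1.04, adjusted p = 0.038) and in edgeR without control macrophage replicate 3 (1.44, adjusted p = 0.015; range over 12 alternatives 0.015 to 0.32). *Fosb* differed by 1.65 ± 0.85 and was called by neither tool. DESeq2 thus called 8 of the 10 genes, with *Jun* higher and *Egr1* lower beside the 6.

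Control ECs were higher than control liver for 4 of the 10 genes and lower for none (26.6% of all genes higher, 33.3% lower, 59.9% in either direction), and the groups did not overlap for 5 of 10 (80.2% of all genes). *Ier3* was at 13.3, 24.5 and 20.9 CPM in control ECs against 1.31, 0.912 and 0.731 CPM in liver, which is 13.8-fold higher (log2 difference 3.79 ± 0.34, edgeR adjusted p = 2.9e-05). *Fos* was 11.5-fold, *Dusp1* 7.38-fold and *Jun* 3.05-fold higher. All 4 calls held in 12 of 12 alternatives. *Junb*, *Atf3* and *Ier2*, higher in control macrophages, were not called in ECs, at 0.52 ± 0.30, 0.79 ± 0.74 and 0.70 ± 0.43. Without control liver replicate 1 *Atf3* was called, at 2.33 (edgeR adjusted p = 0.0019; range over 12 alternatives 0.0019 to 0.67), and without control EC replicate 2 so was *Ier2*, at 1.07 (0.0061; range 0.0061 to 0.59). *Zfp36* at -0.51 ± 0.28 and *Egr1* at -1.003 ± 0.94 lay on the other side of 0 and were not called. *Egr1* ran from -2.75 without control EC replicate 2, where it was called, to -0.085 without control liver replicate 2, and was called with the replicate number as a block (edgeR adjusted p = 0.0091; range over 12 alternatives 0.0091 to 0.94). Cell type, the isolation steps, the RNA extraction (a column kit for sorted cells, TRIzol for liver) and the age of the mice cannot be told apart in these comparisons with liver.

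**Figure D3:**
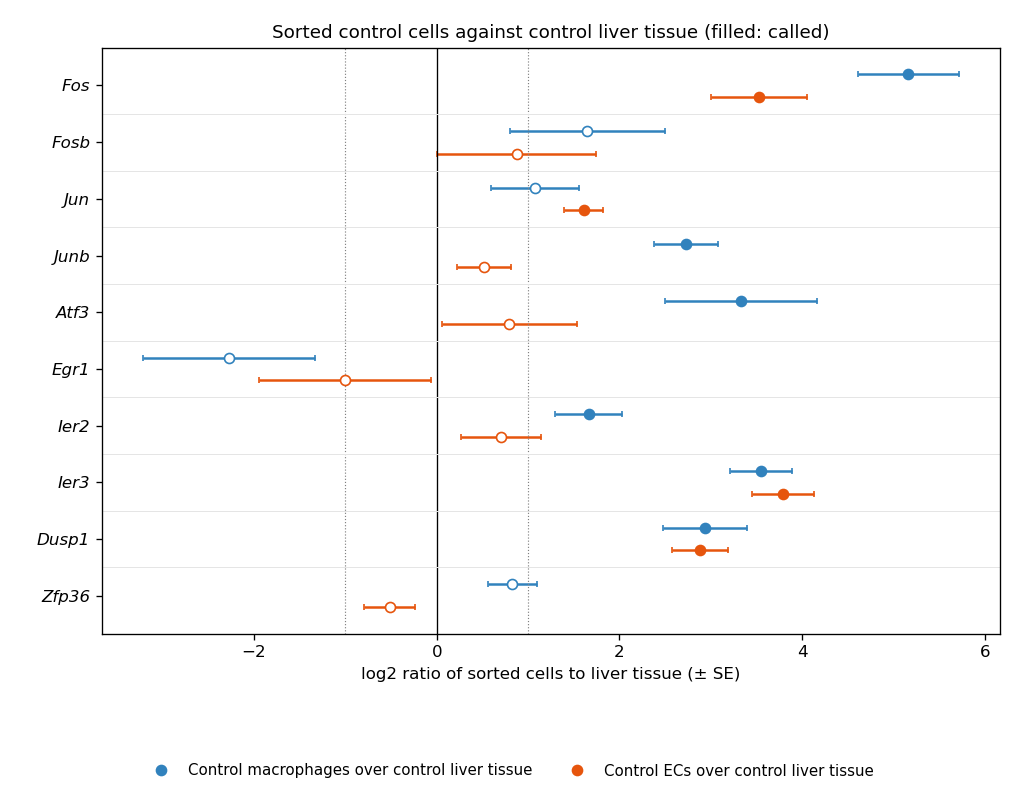
Log2 ratio (± SE) of control macrophages and of control ECs, 3 libraries each, to the 3 control liver libraries for the 10 genes; filled points were called. *Fos*, *Ier3* and *Dusp1* are filled for both cell types and *Egr1* lies to the left of 0 for both without a call.

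Macrophages and ECs went through the same digestion, and their controls can be set beside each other directly. Control macrophages were higher for *Atf3* (5.63-fold, log2 difference 2.49 ± 0.29), *Junb* (4.48-fold, 2.16 ± 0.37), *Fos* (3.02-fold, 1.59 ± 0.52) and *Zfp36* (2.45-fold, 1.29 ± 0.32), 4 of 10 where 18% of all genes were called higher, 17.9% lower and 35.9% in either direction. *Dusp1* (0.01 ± 0.37) and *Ier3* (-0.29 ± 0.29) were not called. *Atf3* was at 26.5, 19.2 and 41.6 CPM in control macrophages and at 5.23, 6.00 and 6.37 CPM in control ECs, without overlap. The *Fos* values overlapped, and its call was lost without control macrophage replicate 1 (adjusted p = 0.11) or 3 (0.061) and without control EC replicate 1 (0.12) or 3 (0.13), while that of *Zfp36* was lost without control macrophage replicate 1, at a log2 difference of 0.98. Without control macrophage replicate 1 *Jun* was called lower in macrophages, at a log2 difference of -1.28. One control mouse gave a library to each group, as macrophage replicate 2 and EC replicate 3. Without its macrophage library 4 of the 10 genes were called and without its EC library 3, *Fos* being lost. With the replicate number as a block, which does not mark shared mice here, 2 were called, *Atf3* and *Junb*, with adjusted p of 0.09 for *Fos* and 0.065 for *Zfp36* in edgeR (range over 12 alternatives 0.0016 to 0.13 for *Fos* and 0.00017 to 0.065 for *Zfp36*).

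The 2 sets of control macrophages, both floxed without Cre, also differed. Smad4FF macrophages had higher *Fosb* (3.99-fold) and *Ier3* (2.01-fold) and lower *Dusp1* (2.45-fold) and *Zfp36* (3.30-fold) than BMP9/10 control macrophages, 4 of 10 where 12.4% of all genes were called, 7.17% higher and 5.28% lower. *Zfp36* was at 52.8, 41.7 and 41.4 CPM in Smad4FF and at 208, 118 and 118 CPM in BMP9/10 control macrophages (log2 difference -1.72 ± 0.24, edgeR adjusted p = 0.003), without overlap and called in 12 of 12 alternatives. With 1 library left out, *Fosb* was called only without Smad4FF replicate 3 and *Dusp1* only without BMP9/10 control replicate 3, while *Ier3* lost its call without Smad4FF replicate 2 or 3 or BMP9/10 control replicate 2. The log2 differences between these controls were 1.01 ± 0.25 for *Ier3* and -1.29 ± 0.40 for *Dusp1*, beside 1.24 ± 0.23 and -1.81 ± 0.46 in Bmp9/10-HSC-KO against control macrophages. The 2 comparisons share the BMP9/10 control libraries and were not tested against each other. Marker sums differed between these controls as well. The 10 endothelial markers other than *Cdh5* and *Eng* summed to between 529.6 and 1912 CPM in Smad4FF and to between 50.8 and 258 CPM in BMP9/10 control macrophages, the lymphocyte markers to between 154 and 273 CPM and between 69.3 and 110 CPM, and *Trf* had means of 1187 and 3410 CPM. The stellate cell markers summed to between 185 and 219 CPM in Smad4FF and between 103 and 179 CPM in BMP9/10 control macrophages. The macrophage markers summed to between 39435 and 46737 CPM and between 34113 and 35389 CPM, though *Adgre1*, *Fcgr1*, *Csf1r* and *Mpeg1* had lower means in Smad4FF. The part of all these markers in the 4 differences was not tested. The flox allele, the cohort and the count table cannot be told apart here.

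The spread between mice of 1 group was set beside that of 5588 genes whose mean log2 CPM reached 3 in every group. Of the 10 genes 5 reached this level, *Jun*, *Junb*, *Ier2*, *Dusp1* and *Zfp36*, and their median within-group SD of log2 CPM lay between 0.37 and 1.06 over the 8 groups, against a median between 0.14 and 0.18 over the 5588 genes. Over all 10, with the low ones, the median lay between 0.41 and 0.93. *Egr1* had the widest within-group SD, 1.09, and *Ier3* and *Zfp36* the narrowest, 0.43 and 0.44. In some libraries most of the 10 genes lay on one side of the group mean, and in others they were mixed (the plot of deviations from the group mean). This was given no test and was not set against other genes. BMP9/10 control macrophage replicate 1 was the highest of its group for 9 of 10 genes, with a mean deviation of 0.70 on the log2 scale, and Bmp9/10-HSC-KO macrophage replicate 2 was the lowest for 9 of 10, at -0.47. In ECs, Bmp9/10-HSC-KO replicate 2 was the highest for 10 of 10, at 0.54, and in liver knockout replicate 3 was the lowest for 9 of 10, at -0.55, so whole tissue showed such a library too. Among the mixed libraries, Smad4FF macrophage replicate 2 and control EC replicate 3 were each the highest of their group for 3 genes and the lowest for 3, and control EC replicate 2 was the highest for 6 and the lowest for 3. *Ier3*, the gene that rose in Bmp9/10-HSC-KO macrophages, was highest there in replicate 2, the library that was lowest for the other 9.

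**Figure D4:**
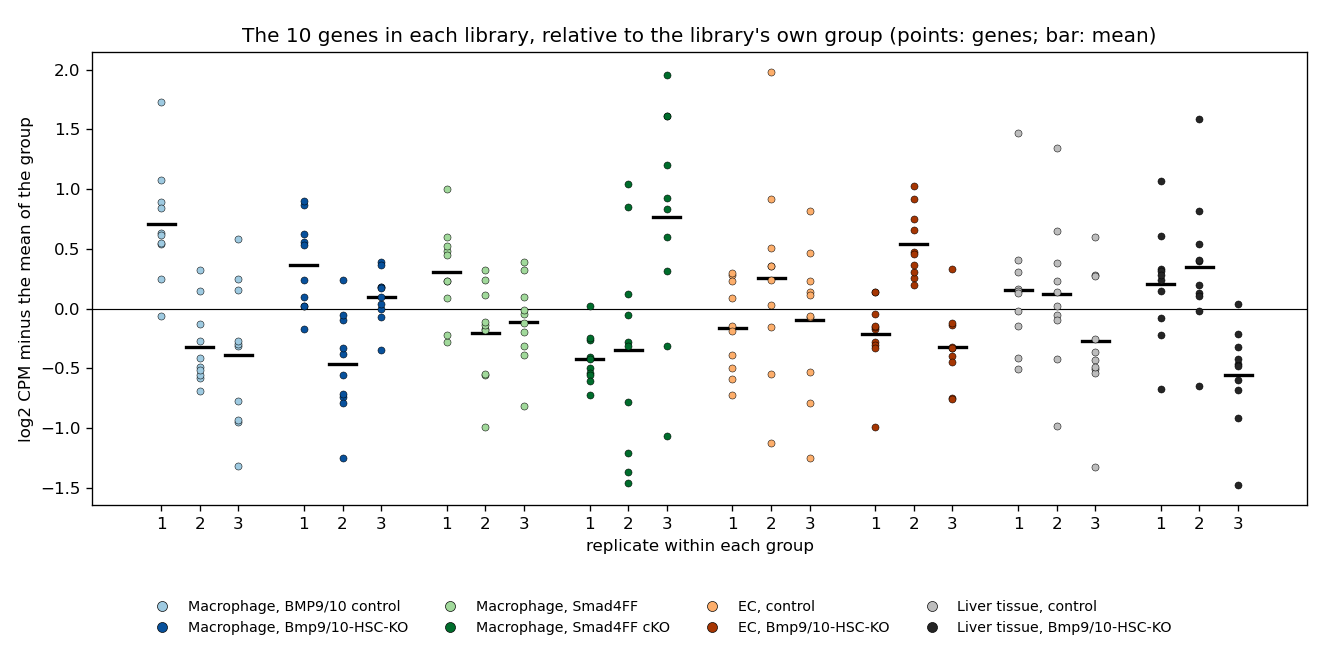
Log2 CPM (with 0.5 added) of each of the 10 genes minus the mean of the library's own group, for the 3 replicates of the 8 groups (points: genes; bars: mean of the 10 genes). Bmp9/10-HSC-KO EC replicate 2 has all 10 points above 0, and the means run from -0.55 in a liver library to 0.77 in a Smad4FF cKO macrophage library.

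Of the 3 mice that gave both cell types, 1 Bmp9/10-HSC-KO mouse had the lowest level of its group for 9 genes in macrophages (replicate 2) and for 7 in ECs (replicate 3), with mean deviations of -0.47 and -0.33. The second knockout mouse had mean deviations of 0.10 in macrophages and -0.21 in ECs, and the control mouse of -0.32 and -0.09.

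Outside the 10 genes, 5583 genes were ranked by the mean absolute difference between their deviations and the mean deviation of the 10 genes over all 24 libraries. The 8 closest were *Tubb6* (0.196), *Hsp90ab1* (0.199), *Smad3* (0.200), *Dnmt3a* (0.213), *Dusp6* (0.214), *Rhbdf2* (0.217), *Pola2* (0.217) and *Rasa3* (0.221), against a median of 0.334 over all ranked genes and of 0.184 to 0.559 for the 10 genes themselves, which enter the mean. A gene that never left its group mean would lie at 0.323, so the median gene lay about where a flat gene would, and 6 of the 10 genes (*Fosb*, *Junb*, *Egr1*, *Ier2*, *Atf3* and *Dusp1*) lay farther from their common mean than that. The ranking is a description, and only distances well under 0.323 show deviations that follow the mean. *Hsp90ab1* codes for a heat shock chaperone and *Dusp6* for the phosphatase of ERK.

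Other genes of the pathway were taken in 8 lists, of which 20 of 126 genes tested were called in Bmp9/10-HSC-KO macrophages (15.9%, beside 11.7% of all genes). Of 33 other immediate early genes tested in Bmp9/10-HSC-KO macrophages 3 rose and 3 fell, among them *Gadd45g* (4.40-fold lower, log2 fold change -2.14 ± 0.19), *Sgk1* (2.74-fold lower, -1.46 ± 0.16) and *Id2*, a direct BMP target (2.49-fold lower, -1.32 ± 0.37, edgeR adjusted p = 0.043). The call of *Id2* was lost in each of the 6 fits that left out 1 library. The 3 that rose, named after their values were seen like other list genes given below with a log2 fold change alone, were *Egr2*, *Ier5* and *Socs3*, at log2 fold changes of 1.93, 1.26 and 1.25. Of 10 MAP kinase phosphatases related to *Dusp1*, 1 rose and 2 fell. *Dusp6*, at 104 ± 47.2 CPM (SD, n = 3) in control macrophages, was 2.84-fold higher in the knockouts (1.504 ± 0.32), with its call lost without control replicate 2 or knockout replicate 1, and *Dusp3* was 2.60-fold lower (-1.38 ± 0.16). The other that fell was the low *Dusp10* (-2.01).

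Of 11 tested messengers known to be bound by ZFP36, 2 rose and 3 fell in Bmp9/10-HSC-KO macrophages. The chemokines *Ccl3* and *Ccl4* rose 4.31-fold and 2.86-fold, while *Zfp36* itself was at 0.02 ± 0.26, and *Il10* and *Il1a* fell (-1.43 and -1.78), as did *Il6*, which was near 0 in the knockouts. *Ccl3* lost its call without control replicate 3. Its relative *Zfp36l2* rose 2.30-fold, the only call of 11 genes of the ZFP36 family and NF-κB feedback. Of 12 integrated stress response genes, which lie downstream of ATF4, 2 rose, *Psat1* (1.95) and *Gdf15*, which was 7.74-fold higher at 15.0 ± 6.16 CPM. None of 11 other AP-1 and ATF genes was called in edgeR, 1 of 17 heat shock genes fell (*Hspb8*, -2.39), and of 21 upstream kinases and SRF factors 2 rose, the SRF partner *Elk3* (2.55-fold) and the JNK pathway kinase *Map3k1* (2.12-fold, a call lost without control replicate 3).

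In Smad4FF cKO macrophages 12 of 130 list genes were called (9.23%, beside 5.43% of all genes). *Gadd45g* (4.59-fold), *Id2* (3.13-fold), the AP-1 family member *Batf3* (2.17-fold) and *Il1b* (6.00-fold) fell, and *Dusp6* (2.01-fold), *Plk3* (2.27-fold) and *Nupr1* (2.57-fold) rose. By list, 2 of 34 other immediate early genes rose and 2 fell (2 calls in all without Smad4FF replicate 3), 1 of 11 phosphatases rose and 1 fell, 1 of 12 other AP-1 and ATF genes fell, 2 of 10 ZFP36-bound messengers fell (0 without Smad4FF cKO replicate 1, 1 without Smad4FF replicate 1 or 3, 5 with DESeq2) and 3 of 14 integrated stress response genes rose. No call was made among 11 ZFP36 family and feedback genes, 17 heat shock genes or 21 kinases and SRF factors. The calls of *Dusp6* and *Plk3* each held in 3 of 6 fits with 1 library left out and that of *Il1b* in 5. Outside the naming rule *Egr2* (1.30), *Psat1* (1.99) and *Gdf15* (4.65) rose and *Dusp10* (-1.59) and *Il6* (-3.28) fell on the log2 scale.

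In Bmp9/10-HSC-KO ECs 24 of 125 list genes were called (19.2%, beside 13.7% of all genes). Of 16 integrated stress response genes 6 rose and 1 fell, with a median log2 fold change of 1.23 against 0.0048 over all genes, and between 5 and 7 were called over the alternatives. *Ddit4*, an inhibitor of mTOR, rose 3.56-fold to 131 ± 34.7 CPM, a call lost without control replicate 2 or knockout replicate 2 or 3, *Trib3* rose 2.38-fold, and *Sesn2*, another brake on mTOR, fell 2.24-fold (not called without control replicate 3). The other 4 that rose were the serine and asparagine synthesis genes *Psat1* (2.88 on the log2 scale), *Asns* (2.03) and *Phgdh*, which was at 0 counts in every control library, and *Nupr1* (4.89). Of 17 heat shock genes 2 rose, with *Hspb1* 12.9-fold higher, from 12.2 ± 3.02 to 158 ± 13.5 CPM (log2 fold change 3.69 ± 0.22) and *Cryab* at 1.13. Of 34 other immediate early genes 3 rose and 4 fell, 7 calls that ran from 5 to 12 over the alternatives, with 12 under library size alone. *Ppp1r15a*, whose product reverses the integrated stress response, fell 3.83-fold and *Id2* 4.84-fold, while *Cyr61*, a matrix gene under SRF and YAP, rose 2.99-fold, a call held in 1 of 6 fits with 1 library left out, without control replicate 2.

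In the remaining EC lists *Dusp10*, a phosphatase of p38 and JNK, fell 22.9-fold from 19.8 ± 4.69 to 0.866 ± 0.716 CPM, while *Dusp1* was not called. Its log2 fold change of -4.52 ran from -5.19 without knockout replicate 2 to -3.99 without knockout replicate 3. The cytokine *Il1a* fell 73.6-fold, from 23.9 ± 12.2 to 0.315 ± 0.369 CPM, 1 of 3 calls among 5 ZFP36-bound messengers tested, with *Il1b* (-3.85) and *Ccl2* (-1.79). These 3 calls ran from 1 to 4 over the alternatives, with 1 left without control replicate 1 or 3 or knockout replicate 1 or 3. The size of the *Il1a* fold rests on values near 0 in the knockouts, its log2 fold change of -6.20 running from -7.79 without knockout replicate 1 to -5.63 without knockout replicate 3, with the call held. *Batf* fell 2.09-fold, the single call of 12 other AP-1 and ATF genes (held in 2 of 6 fits with 1 library left out), and *Mkl2*, a coactivator of SRF, rose 5.04-fold, 1 of 2 calls among 21 kinases and SRF factors, beside *Map3k5* (3.92). Of 9 phosphatases 1 rose (*Dusp8*, 3.68) and 1 fell, and none of 11 ZFP36 family and feedback genes was called. In liver, 2 of 127 list genes were called (1.57%, beside 2.48% of all genes): *Sesn2*, which fell 2.45-fold from 15.8 ± 2.36 to 6.43 ± 0.653 CPM, and *Il1a*, 1 of 8 ZFP36-bound messengers, which fell by 4.37 on the log2 scale.

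Reads of 4 of the 10 genes may be shared with an annotated neighbour on the other strand, since the strand setting of the counting is not given in the sources used here. *Jun* shares 232 exonic bases with its antisense gene *Junos*, *Junb* 173 with *Prdx2*, *Zfp36* 125 with *Gm44710* and *Dusp1* 11 with *Ergic1*. *Junos* was between 0.0975% and 6.89% of *Jun* in CPM and *Gm44710* at most 0.915% of *Zfp36*. *Ergic1* lay between 27.1 and 80.04 CPM, which was between 9.56% and 584% of *Dusp1*, and *Prdx2*, a peroxiredoxin gene, ran from 77.1% to 652% of *Junb*.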

How the data were processed

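RNA-seq of 24 libraries was deposited by the authors as 4 tables of raw counts per gene, 6 libraries and 48820 entries each. Per the paper's methods and the labels, reads were aligned to mm10/GRCm38 with HISAT2 and counted with featureCounts; versions, annotation and strand setting are not given in the sources used here. Call thresholds followed the study's rule (adjusted p below 0.05, absolute log2 fold change above 1). Each comparison was fitted on its own groups, with all genes, in edgeR 4.0.16 (R 4.3.3): filterByExpr (minimum count 10, minimum total 15), TMM, glmQLFit and glmQLFTest, with Benjamini-Hochberg adjustment over all genes tested. SE is the log2 fold change divided by the square root of F. CPM use TMM factors within a table, so levels set across tables rest on tables scaled separately. Fits across tables dropped 483 entries that share a symbol with another. Exon lengths and positions come from GENCODE vM21. The fits were tested on simulated data. The members and gene lists were chosen with earlier results of these data known. Named genes were the 10 members everywhere, and from each other list up to 3 called genes with the largest change at a mean log2 CPM of at least 3 per knockout comparison, and the 8 genes nearest to the members' mean deviation. Other called list genes were named after their values were seen. Same-numbered libraries deviated together in liver (correlations over genes of 0.24, 0.22 and 0.11), so the replicate number was taken as a pairing there, although the label names give none. Between control macrophages and control ECs (0.13, 0.10 and 0.18) it was not, since the mouse with both libraries has different numbers by its label names. Alternatives were DESeq2 1.42.0, its size factors, library size alone, 2 other filters, the adjusted p alone, the replicate block, the mouse as a random block (limma-voom 3.58.1, macrophages against ECs), and leaving out each library. No columns were left unused. Relative counting error is largest at low counts and is not confined to genes near 3 counts. *Ier3* in Bmp9/10-HSC-KO liver, for 1, rested on 35, 71 and 23 counts.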

Additional observations from a re-analysis of the deposited data

Results flagged for a closer look

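*Ier3* in Bmp9/10-HSC-KO mice had effects that differed between sorted macrophages and whole liver by a test of the difference itself, at 2.07 ± 0.48 on the log2 scale (edgeR adjusted p = 0.022; 0.00085 to 0.06 over 18 alternatives). All 3 knockout macrophage libraries (29.3 to 39.2 CPM) lay above the controls (9.62 to 16.3 CPM), while the liver values (0.320 to 0.845 CPM against 0.731 to 1.31 CPM) overlapped. In liver the macrophage marker sum went from 342 to 539 CPM in control to 137 to 273 CPM in the knockouts, and the stellate cell sum from 404 to 510.2 CPM to 653 to 731 CPM. The hepatocyte sum was higher and the lymphocyte and neutrophil sums were lower in the knockouts. *Alb* was the greater part of the hepatocyte sum (means of 87530 and 124810 CPM), while *Apoc3*, *Ttr* and *Hp* had lower means in the knockouts. So did *Lrat* and *Rgs5* of the stellate cell markers. The part of these markers in the result was not tested. With 3 libraries in each group, no single library was tested as an outlier.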

How the results depend on the processing

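Over all alternatives no called value changed sign. The number of the 10 genes called was 0 in ECs, and became 1 with DESeq2 (*Ier2*), 2 with library size alone (*Jun*, *Ier2*) and 1 by the adjusted p alone (*Jun*). In liver it went from 0 to 1 with DESeq2 (*Jun*). For the difference of effects between macrophages and ECs it went from 0 to 1 with DESeq2 and with library size alone (*Dusp1*), and to 2 when genes needed 10 counts in every library (*Dusp1*, *Ier3*). Control macrophages against control ECs went from 4 to 2 with the replicate block, and Smad4FF against BMP9/10 control macrophages from 4 to 2 with the replicate block and to 2 with library size alone. Leaving out 1 library at a time gave between 1 and 2 in Bmp9/10-HSC-KO macrophages, 0 and 1 in Smad4FF cKO macrophages, 0 in ECs and liver, 0 and 1 for the difference between macrophages and liver, 0 for that between ECs and liver, 0 and 1 for that between macrophages and ECs, 0 for that between the 2 deletions, 6 and 7 for control macrophages over liver, 4 and 6 for control ECs over liver, 3 and 4 for control macrophages over ECs, and 1 and 3 for the 2 sets of control macrophages. Where 1 library is left out, 2 remain in that group. The cause of these shifts was not tested.

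Counts over all genes moved by more than 1.5 times in liver (425; 794 with DESeq2, 271 with the replicate block, 188 as the lowest with 1 library left out), Smad4FF cKO macrophages (951; 566), the difference between macrophages and liver (1441; DESeq2 2247), between ECs and liver (1232; DESeq2 1955) and between the 2 deletions (473; DESeq2 1030, lowest 233), and by the adjusted p alone in Bmp9/10-HSC-KO macrophages (1904; 3129) and the 2 sets of controls (2068; 5160). Library size alone moved the median log2 fold change of all genes by over 0.1 in 9 of 12 comparisons, in ECs from 0.0048 to 0.30. Replicate numbers were not taken as a pairing in the other comparisons (correlations from -0.38 to 0.38), where the replicate block left 1599 calls in Bmp9/10-HSC-KO macrophages, 716 in Smad4FF cKO macrophages and 2054 in ECs. A mouse block in limma-voom for control macrophages against control ECs, chosen after seeing the data, could not be fitted, since 1 mouse in both groups does not allow the correlation to be estimated. Calls in the other gene lists moved by more than 1.5 times mostly at counts of 1 to 3: over the alternatives heat shock genes ran from 0 to 1 and genes of the ZFP36 family from 1 to 3 in Bmp9/10-HSC-KO macrophages, phosphatases from 2 to 4 and heat shock genes from 1 to 2 in ECs, and other AP-1 and ATF genes from 0 to 2 in ECs and in Smad4FF cKO macrophages. The other 155 counts for the 10 genes stayed within 1.5 times.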

Other observations

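The ratio of *Fos* to *Jun*, each as CPM per kilobase of exon, was looked at after its values were seen and was given no test. It was 3.61, 3.01 and 6.50 in BMP9/10 control macrophages and 1.72, 1.67 and 1.70 in Bmp9/10-HSC-KO macrophages. In ECs it was 0.504, 1.65 and 0.562 in the controls and 0.182, 0.441 and 0.180 in the knockouts. In both sorted cell types the knockout ratios lay below all control ratios, but 3 mice gave a library to both. No share over other gene pairs is given. In Smad4FF macrophages it was 4.77, 4.83 and 5.24 and in Smad4FF cKO macrophages 2.74, 1.80 and 4.84, which overlapped. Liver also overlapped, with 0.174, 0.49997 and 0.115 in the controls and 0.218, 0.0903 and 0.150 in the knockouts. *Jun* thus exceeded *Fos* per length in all 6 liver libraries and in 5 of 6 EC libraries, and *Fos* exceeded *Jun* in all 12 macrophage libraries.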
